A study of Mus musculus with 6 samples.

Results

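Rab GTPase genes were followed in ribosome-bound RNA of parvalbumin neurons from the frontal cortex of Fxr1 cKO and WT mice. The members are all gene symbols made of Rab, a number and at most 1 letter and 1 further digit, with a CPM (by column total) of 1 or more in at least 2 of 4 libraries. CPM is a gene's count per 1000000 counts of its library. Of 58 such symbols among the 23306 rows of the table, 49 met the minimum and 9 did not, and all 49 could be tested. The lowest members by that rule were Rab13 (1.28 and 1.75 CPM in Fxr1 cKO, 2.17 and 1.26 CPM in WT) and Rab7l1 (2.07 and 1.85 CPM in Fxr1 cKO, 1.34 and 2.04 CPM in WT). The highest symbols below it were Rab32 (0.787 and 0.583 CPM in Fxr1 cKO, 0.722 and 0.582 CPM in WT) and Rab42 (0.590 and 0.486 CPM in Fxr1 cKO, 0.413 and 0.777 CPM in WT). Rab17, Rab19, Rab20, Rab25 and Rab39 held between 1 and 12 counts over the 4 libraries together, and Rab38 and Rab44 held 0. Rab1 and Rab7l1 are the table's older symbols for Rab1a and Rab29.

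The mice were male C57BL6 animals, either with a conditional knockout of Fxr1 (Fxr1 cKO) or wild type for Fxr1 (WT), and the labels give no age or treatment. Per the labels, ribosomes were tagged by crossing a parvalbumin Cre driver with mice that carry haemagglutinin-tagged Rpl22, a ribosomal protein, and the knockout uses PV-Cre as well, so both depend on where that driver is active. The labels do not give the alleles of the WT mice beyond their genotype. Of 3 libraries deposited for each genotype, Fxr1 cKO replicates 1 and 3 and WT replicates 2 and 3 were analysed, with total counts between 9696126 and 10301280. Whether libraries came from separate mice is not in the labels, and p-values here reflect only the variation among 4 libraries, which may be technical. The targeted gene Fxr1 stood at 17.97 and 18.5 CPM in Fxr1 cKO, against 97.7 and 101.2 CPM in WT, so it was lower in both libraries labelled as knockout. CPM here and below use library totals scaled by edgeR's TMM factors. Pvalb stood at 250.3 and 239 CPM in Fxr1 cKO, against 260 and 266 CPM in WT, and Gad1, for a GABA-synthesising enzyme, at 4284 and 4013 CPM in Fxr1 cKO, against 4325 and 4320 CPM in WT. The sum of 9 parvalbumin neuron markers was 11139 and 10973 CPM in Fxr1 cKO, against 11296 and 11562 CPM in WT, with fitted values above 0 for 3 of the 9. These levels were lower in both Fxr1 cKO libraries. Markers of other cells were present as well. The summed level of 7 excitatory neuron markers was 821.8 and 850.02 CPM in Fxr1 cKO, against 851 and 780.2 CPM in WT. That of 6 astrocyte markers was 615 and 704 CPM in Fxr1 cKO, against 658 and 635 CPM in WT. That of 10 oligodendrocyte markers was 291 and 405 CPM in Fxr1 cKO, against 312 and 286 CPM in WT, and that of 5 measured striatal markers 62.7 and 61.5 CPM in Fxr1 cKO, against 51.8 and 51.4 CPM in WT. Fitted values were above 0 for 5 of the 7 excitatory neuron, 4 of the 6 astrocyte, 8 of the 10 oligodendrocyte and 5 of the 5 striatal markers. No measured marker of these lists was at 0, and their part in the results below was not tested. Averaged over the 4 libraries, Camk2a of the excitatory list (697 CPM) and Slc1a2 of the astrocyte list (472 CPM) stood above Pvalb (254 CPM) and below Gad1 (4236 CPM). These CPM are not corrected for gene length. Per kilobase of annotated exon, Pvalb (244 CPM) stood above Camk2a (93.4 CPM) and Slc1a2 (35.9 CPM), and Gad1 (554 CPM) remained highest. Levels below are those of the pull-down, not of parvalbumin neurons alone. The ribosomal RNA gene Rn45s set 1 library apart, with 7176 and 2803 CPM in Fxr1 cKO replicates 1 and 3, against 3131 and 3069 CPM in WT. Closeness of libraries did not follow genotype throughout. The chi-square per degree of freedom between counts was 6.35 for the 2 Fxr1 cKO libraries and 3.68 for the 2 WT libraries. Across genotypes it was lowest, at 3.02, for Fxr1 cKO replicate 3 with WT replicate 3. It was 4.02 for Fxr1 cKO replicate 1 with WT replicate 2, and 4.53 for Fxr1 cKO replicate 3 with WT replicate 2. For Fxr1 cKO replicate 1 with WT replicate 3 it was 6.12. By this measure WT replicate 2 was closest to WT replicate 3, and the other libraries were closest to a library of the other genotype. What the closer pairs share is not in the labels, and its part in the results was not tested. In bulk RNA, fewer cells of a type and less RNA per cell cannot be told apart.

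Rab proteins are small GTPases of the Ras superfamily, each placed on particular membranes, where its GTP-bound form recruits the effectors that move, tether and fuse vesicles. Exchange factors (GEFs) load GTP, GTPase-activating proteins (GAPs) end the signal, and GDP dissociation inhibitors (GDIs) take the inactive protein off the membrane. In neurons, Rab3 and Rab27 proteins act on synaptic and secretory vesicles, Rab5, Rab4, Rab11 and Rab7 along the endosomal route, and Rab1, Rab2 and Rab6 between the endoplasmic reticulum and the Golgi. The anchor of most Rab proteins is a geranylgeranyl lipid on cysteines near the C-terminal end.

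Those cysteines can be read from the coding sequence, but the lipid they carry was not measured. The ends of 6 coding sequences are shown because they belong to the 4 members with the highest level per length and to 2 members with other arrangements of the same codons. Each is the last 30 bases before the stop codon, in the sense of the gene, from the GENCODE M21 transcripts of mm10, with cysteine codons in capitals.
Rab3a: caggcgccacctcatcaggatTGTgccTGC
Rab6b: cccccggccagcgagggcggcTGCtccTGT
Rab6a: caaccagtcaatgaaggcggcTGTtccTGC
Rab2a: ggcggacagcaggcagggggaggcTGCTGT
Rab37: aagaagcgctccagcTGCTGCtcctttgtg
Rab8a: aggaccagcttcttccggTGCagtctcctg
Rab3a lies on chromosome 8 (70754679 to 70758677, plus strand), Rab6b on chromosome 9 (103111787 to 103185276, plus strand) and Rab6a on chromosome 7 (100607410 to 100641268, plus strand). Rab2a lies on chromosome 4 (8535644 to 8607778, plus strand), Rab37 on chromosome 11 (115091431 to 115162236, plus strand) and Rab8a on chromosome 8 (72161200 to 72183904, plus strand). A cysteine codon stood among the last 4 codons in all 49 members. In 17 members, Rab3a and both Rab6 genes among them, the last and third-last codons were cysteine codons. In 13, such as Rab2a, both last codons were. In 11, such as Rab37, Rab5a and Rab11a, an adjacent pair was followed by other codons, and in 8, such as Rab8a, a single cysteine codon was followed by 3 other codons. Coding regions ran from 194 to 295 codons, with a median of 215.

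Levels of the members spanned a wide range. Mean CPM ran from 1.61 for Rab13 to 1127 for Rab6b, with a median of 40.9, and 12 members stood at 100 CPM or more. To compare genes, CPM was divided by the kilobases of annotated exon. On that scale the median member stood at 9.93 CPM per kb, against 5.14 over all tested genes with coordinates, and 4 members held 57.9% of the sum over all 49. Rab3a, the Rab of synaptic vesicles that binds RIM and rabphilin, led with 376.2 ± 6.496 CPM per kb (SD, n = 4). Rab6b, the Rab6 form known from neurons, followed with 224 ± 14.1, then Rab6a, its widely expressed paralog of Golgi transport, with 157 ± 6.06, and Rab2a, of traffic between the endoplasmic reticulum and Golgi, with 79.9 ± 9.49 CPM per kb. The ranges of these 4 over the libraries did not overlap. Below them the order blurred: Rab12 at 49.9 ± 0.473 and Rab3c at 49.8 ± 3.45 CPM per kb lay within their spread, and the libraries of Rab3b at 44.7 ± 1.70 and Rab11a at 42.6 ± 1.36 overlapped.

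**Figure D1:**
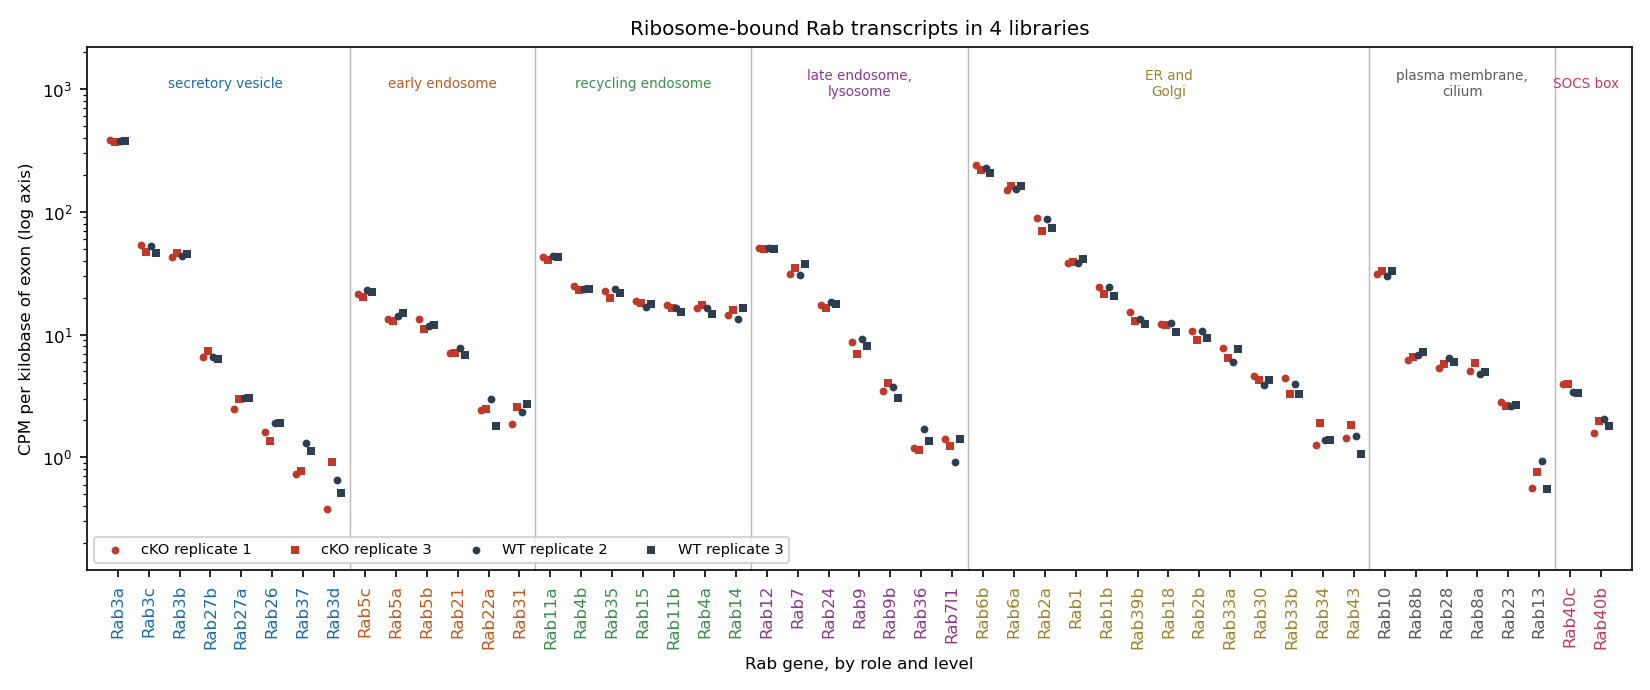
CPM per kilobase of exon (log axis) of each of the 49 Rab genes in the 2 Fxr1 cKO libraries (red) and the 2 WT libraries (dark), grouped by role and ordered by level. Rab3a at 376 and Rab6b at 224 CPM per kb stand highest, and for nearly all genes above 10 CPM per kb the 4 points lie close together.

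The length used matters for some genes. With the longest transcript in place of all exons, Rab3a stood at 538 and Rab6a at 182 CPM per kb, while Rab12 at 73.1 and Rab3c at 71.1 came near Rab2a, which stayed at 79.9. A larger move was that of Rab14, from 15.0 to 40.8 CPM per kb and from rank 20 to rank 10 of the members. Counting rules add a further limit, since whether strand was used is not given in the sources used here. Exons of 7 members overlap another gene with counts. For 4 of them the other gene held more than 500 counts over the 4 libraries: Prelid1 (2872, beside 1422 for Rab24), Tox4 (2576, beside 1670 for Rab2b), Traf7 (741, beside 195 for Rab26) and Mrpl48 (983, beside 23675 for Rab6a). Over 19 pairs of paralogs within families, coding identity ran from 64.3% to 77.7%, and the longest stretch identical between their transcripts from 14 to 38 bases.

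Members that share a number are close paralogs, and most families were led by 1 of them. Rab3a made up 79.8% ± 0.357 of the Rab3 family per length (SD, n = 4), Rab3c 10.6% ± 0.609, Rab3b 9.49% ± 0.500 and Rab3d, known from exocrine granules, 0.131% ± 0.0513. Rab2a made up 88.9% ± 0.356 of its pair with Rab2b, and Rab11a 72.2% ± 1.33 of its pair with Rab11b. Rab27b, the form better known from neurons, held 69.8% ± 2.18 of its pair with Rab27a. The Rab6 family was more even, with 58.8% ± 2.39 for Rab6b, and so were Rab8b with 56.5% ± 3.03 and Rab4b with 59.5% ± 1.86 of their pairs. In the Rab5 family, Rab5c led with 45.6% ± 1.08, ahead of Rab5a with 29.1% ± 1.11 and Rab5b with 25.2% ± 1.72, but by longest transcript Rab5a (36.1%) and Rab5c (38.6%) were nearly level.

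Shares within families were then set side by side between genotypes. Rab6b took 61.6% and 57.2% of its family in Fxr1 cKO, against 59.8% and 56.5% in WT, and Rab3a 79.8% and 79.5% in Fxr1 cKO, against 79.6% and 80.3% in WT. In both families the genotypes overlapped. Rab8a took 44.8% and 47.2% of its pair with Rab8b in Fxr1 cKO, against 41.0% and 41.0% in WT, and Rab27b 72.4% and 70.9% in Fxr1 cKO, against 68.2% and 67.8% in WT. Shares stood apart in those pairs and also for Rab5b, Rab11a and Rab40c, so in 5 of 12 families. A family counted if the share of any member stood apart, and in the Rab5 family those of Rab5a and Rab5c overlapped. For single genes, the CPM of 30.1% of all tested genes stood apart, which is not a matching rate. No test was run on shares.

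**Figure D2:**
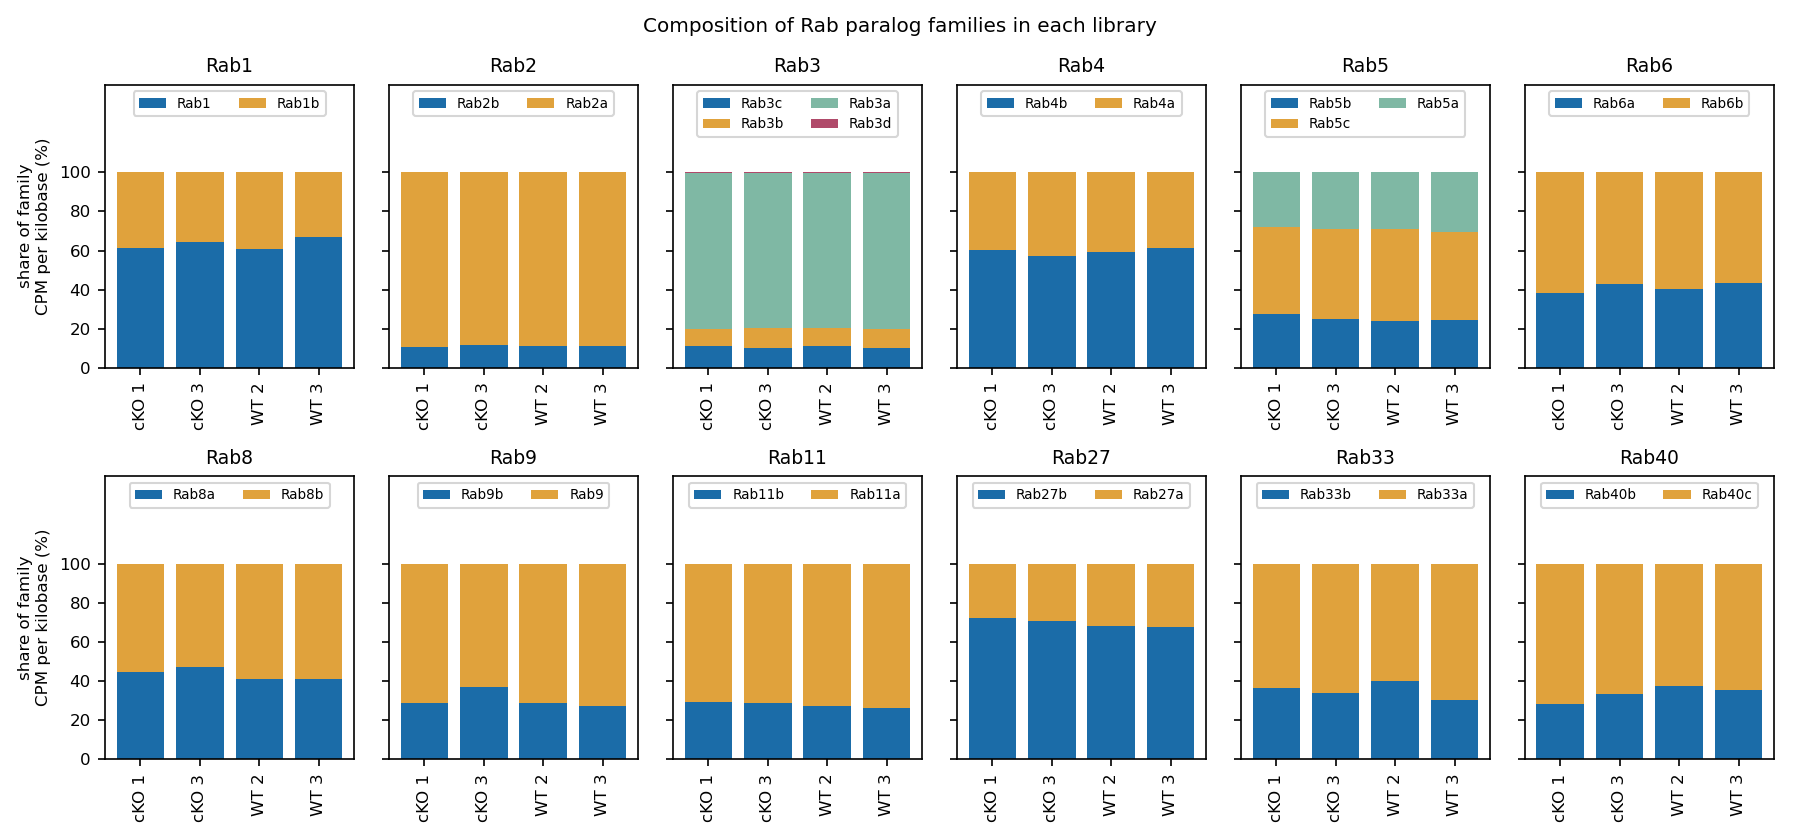
Share of each paralog in its family's CPM per kilobase (percent) in Fxr1 cKO replicates 1 and 3 and WT replicates 2 and 3, for the 12 families with 2 or more members. Rab3a fills 79.8% of its family on average and Rab2a 88.9% of its pair, with the bars of the 4 libraries much alike in both. Some other pairs vary more, such as Rab9b, from 27.3% in WT replicate 3 to 36.8% in Fxr1 cKO replicate 3.

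The comparison of genotypes asked whether loss of Fxr1, the gene of an RNA-binding relative of FMRP, went with a change of ribosome-bound Rab transcripts. In the quasi-likelihood fit of edgeR, adjusted by Benjamini-Hochberg over 12449 genes, 0 of the 49 members passed an adjusted p of 0.05. Over all tested genes 4 passed, which is 0.0321%. At an adjusted p of 0.1, 0 members and 0.0402% of all tested genes passed. DESeq2's Wald test and limma voom also gave 0 members. An unadjusted p under 0.05 was reached by 1 member with edgeR, 0 with DESeq2 and 1 with voom, against 3.23% of all tested genes with edgeR. Fitted values lay above 0 for 26 members and below 0 for 23, with a median log2 fold change of 0.0078, against 49.6% above and 50.4% below 0 and a median of -0.0015 over all tested genes. The lowest adjusted p of a member was 0.998.

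The 95% intervals of the fits give a range of change for 1 gene at a time. They are not adjusted over genes. Like the p-values, they reflect only the variation among 4 libraries, which may be technical. For 38 of 49 members the whole interval lay within a change of 1.5-fold in either direction, and for 46 within 2-fold. All 12 members at 100 CPM or more were within 1.5-fold. Their median standard error (SE) was 0.08 on the log2 scale. For the 11 members under 10 CPM it was 0.25, and 1 of them was within 1.5-fold.

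**Figure D3:**
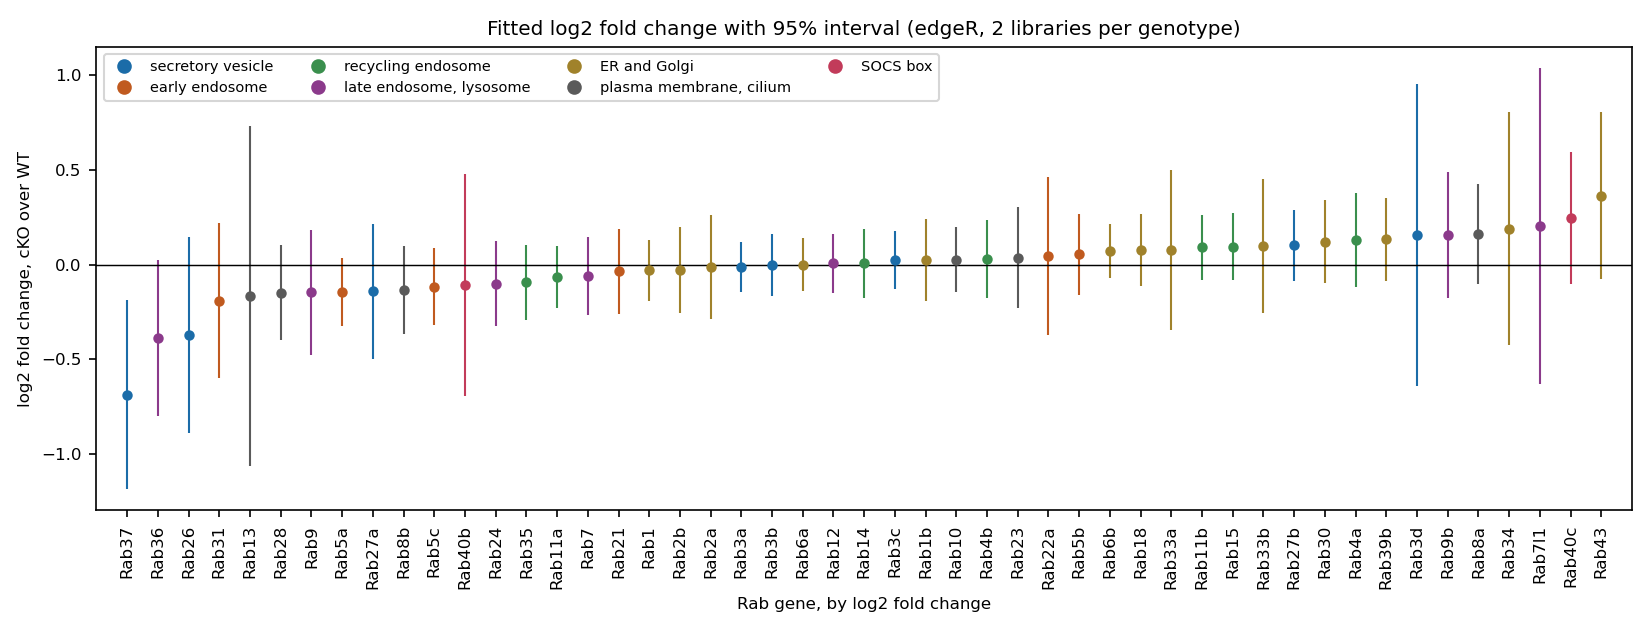
Fitted log2 fold change (Fxr1 cKO over WT) of the 49 Rab genes with its 95% interval, ordered by value and coloured by role. All intervals but that of Rab37 include 0, and the widest belong to members with few counts such as Rab13 and Rab7l1.

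Summed over all members, Rab transcripts came to 5586 and 5364 CPM in Fxr1 cKO, against 5485 and 5345 CPM in WT. The ratio of the means was 1.01, and an exact two-sided permutation test of the sum gave p = 0.667, where 2 against 2 libraries cannot go below 0.3333.

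Synaptic vesicle and secretory Rab genes made up 31.0% of all Rab CPM, and 0 of 8 passed the test. Rab3a measured 851 and 817 CPM in Fxr1 cKO, against 840 and 842 CPM in WT. The Fxr1 cKO libraries enclosed both WT libraries, with a log2 fold change of -0.01 (SE 0.06) and a 95% interval from -0.14 to 0.12. Rab3c, which shares the vesicle function of Rab3a, measured 642 and 567 CPM in Fxr1 cKO, against 629 and 561 CPM in WT, so that replicates of a genotype differed more than genotypes did (0.02, SE 0.07). Rab3b measured 151 and 164 CPM in Fxr1 cKO, against 154 and 161 CPM in WT (-0.0024, SE 0.08). Rab27b had 69.5 and 78.2 CPM in Fxr1 cKO, against 69.6 and 68.1 CPM in WT, where Fxr1 cKO replicate 3 alone stood higher (0.10, SE 0.09).

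Rab37, which in mouse mast cells sits on secretory granules, had the smallest unadjusted p of all members. Its libraries held 39 and 43 counts in Fxr1 cKO, against 68 and 61 counts in WT, which is 3.87 and 4.14 CPM against 6.97 and 5.96 CPM. Both Fxr1 cKO libraries lay below both WT libraries. The log2 fold change was -0.69 (SE 0.24, 95% interval -1.19 to -0.19), with an unadjusted p of 0.00899 and an adjusted p of 0.998 by edgeR. Rab26, known from secretory granules and from autophagy of synaptic vesicles, had 4.57 and 3.85 CPM in Fxr1 cKO, against 5.43 and 5.47 CPM in WT (-0.37, SE 0.25). Its groups did not overlap either, and its exons overlap those of Traf7 on the same strand. Rab3d, the least abundant paralog, had 1.59 and 3.85 CPM in Fxr1 cKO, against 2.77 and 2.15 CPM in WT, so the Fxr1 cKO libraries were the lowest and the highest. These rest on 16 and 40 counts in Fxr1 cKO, against 27 and 22 counts in WT. In Fxr1 cKO replicate 3 the summed markers of oligodendrocytes (405 CPM), astrocytes (704 CPM), endothelium (12.0 CPM) and other interneurons (111 CPM) were highest too. Those of excitatory neurons, microglia and striatal neurons were not, and the part of other cells in the level of Rab3d was not tested.

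Early endosome Rab genes made up 4.30% of Rab CPM, and 0 of 6 passed. Rab5a, which drives fusion of early endosomes, measured 70.8 and 68.0 CPM in Fxr1 cKO, against 74.7 and 78.8 CPM in WT. Rab5c measured 47.3 and 44.2 CPM in Fxr1 cKO, against 50.5 and 48.7 CPM in WT. In both paralogs each Fxr1 cKO library lay below each WT library, with log2 fold changes of -0.15 (SE 0.09) and -0.12 (SE 0.10). Rab5b did not share that order, with 56.3 and 46.6 CPM in Fxr1 cKO, against 49.1 and 50.0 CPM in WT (0.05, SE 0.10). Rab21, of integrin endocytosis, and Rab22a, of endosomal recycling, overlapped between genotypes. Rab22a was uneven within WT, at 21.5 and 13.0 CPM, beside 17.6 and 17.9 CPM in Fxr1 cKO.

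Recycling endosome Rab genes made up 12.0% of Rab CPM, and 0 of 7 passed. Rab14, of transport between Golgi and endosomes, measured 195 and 214 CPM in Fxr1 cKO, against 183 and 223 CPM in WT. The WT libraries enclosed both Fxr1 cKO libraries (0.0078, SE 0.09). Rab11a, of the slow recycling route, measured 127 and 122 CPM in Fxr1 cKO, against 131 and 129 CPM in WT, lower in both (-0.06, SE 0.08). Its paralog Rab11b measured 108 and 100.2 CPM in Fxr1 cKO, against 100.9 and 94.2 CPM in WT, and overlapped (0.09, SE 0.08). Rab4a, of fast recycling, had 28.9 and 30.6 CPM in Fxr1 cKO, against 28.7 and 25.7 CPM in WT, and Rab15 had 86.3 and 83.0 CPM in Fxr1 cKO, against 77.3 and 81.1 CPM in WT. Both stood higher in each Fxr1 cKO library, with log2 fold changes of 0.13 (SE 0.12) and 0.09 (SE 0.09). Rab4b and Rab35, which also recycle cargo to the plasma membrane, overlapped between genotypes, with values of 0.03 (SE 0.10) and -0.09 (SE 0.10).

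Late endosome, lysosome and autophagosome Rab genes made up 5.75% of Rab CPM, and 0 of 7 passed. Rab12, a substrate of the kinase LRRK2, had the narrowest range over the 4 libraries, with 153 and 151 CPM in Fxr1 cKO, against 152 and 149.6 CPM in WT (0.0055, SE 0.08). Rab7, which brings late endosomes to lysosomes, measured 80.6 and 91.0 CPM in Fxr1 cKO, against 80.0 and 98.7 CPM in WT. The genotypes overlapped (-0.06, SE 0.10). Rab24, linked to autophagosomes, had 34.9 and 33.0 CPM in Fxr1 cKO, against 36.9 and 35.9 CPM in WT (-0.10, SE 0.11). It stood lower in both Fxr1 cKO libraries, and its exons overlap those of Prelid1. Rab36, linked to lysosome position, had 7.35 and 7.13 CPM in Fxr1 cKO, against 10.6 and 8.40 CPM in WT. It had the second smallest unadjusted p, at a log2 fold change of -0.39 (SE 0.20) and an adjusted p of 0.998 by edgeR. Rab9b had 13.9 and 16.1 CPM in Fxr1 cKO, against 14.9 and 12.1 CPM in WT, and overlapped (0.16, SE 0.16).

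Rab genes of the endoplasmic reticulum and Golgi formed the largest group, with 42.7% of Rab CPM, and 0 of 13 passed. Fitted values were above 0 in 9 and below 0 in 4, where 49.6% of all tested genes were above 0, and in 0 of the 13 did the genotypes stand apart, where 30.1% of all tested genes did. Rab6b measured 1216 and 1095 CPM in Fxr1 cKO, against 1146 and 1051 CPM in WT (0.07, SE 0.07, 95% interval -0.07 to 0.22). Rab6a measured 561 and 608 CPM in Fxr1 cKO, against 570 and 600.3 CPM in WT (-0.0017, SE 0.07). In Rab6b, Fxr1 cKO replicate 1 and WT replicate 2 were the higher libraries, and in Rab6a they were the lower ones. Rab2a spanned the widest range of the 12 members at 100 CPM or more, with 189 and 149.9 CPM in Fxr1 cKO, against 186 and 156 CPM in WT (-0.01, SE 0.12). Again replicate 1 of Fxr1 cKO and replicate 2 of WT stood together.

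Among less abundant members of this group, Rab1, which carries cargo from the endoplasmic reticulum to the Golgi, was even between libraries (147 and 148 CPM in Fxr1 cKO, against 146 and 156 CPM in WT). Rab39b, the gene of an X-linked intellectual disability in humans, had 51.5 and 43.9 CPM in Fxr1 cKO, against 45.8 and 41.3 CPM in WT (0.13, SE 0.11). With a library left out, its value ran from 0.01 to 0.24. Rab30, a Golgi Rab, had 44.2 and 41.2 CPM in Fxr1 cKO, against 37.1 and 41.3 CPM in WT (0.12, SE 0.11). Rab43, another Golgi Rab, had the largest value above 0 of all members, with 7.94 and 10.2 CPM in Fxr1 cKO, against 8.30 and 5.86 CPM in WT. The genotypes overlapped, at a log2 fold change of 0.36 (SE 0.21), which ran from 0.13 to 0.64 with a library left out, and an adjusted p of 0.998 by edgeR.

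Rab genes of delivery to the plasma membrane and cilium made up 3.995% of Rab CPM, and 0 of 6 passed. Rab10, an LRRK2 substrate of exocytosis and axon growth, measured 108 and 117 CPM in Fxr1 cKO, against 104 and 117 CPM in WT (0.03, SE 0.08). Rab8a and Rab8b, paralogs of polarized exocytosis, took opposite sides. Rab8a had 23.5 and 27.4 CPM in Fxr1 cKO, against 22.2 and 23.2 CPM in WT (0.16, SE 0.13), and Rab8b 29.4 and 31.0 CPM in Fxr1 cKO, against 32.4 and 33.9 CPM in WT (-0.13, SE 0.11). Rab28, a Rab of the cilium, had 24.3 and 26.1 CPM in Fxr1 cKO, against 29.0 and 27.0 CPM in WT (-0.15, SE 0.12). Rab40c and Rab40b, whose SOCS box joins them to ubiquitin ligases, form a list of their own, of which 0 of 2 passed. Rab40c stood higher in both Fxr1 cKO libraries, with 12.3 and 12.2 CPM, against 10.4 and 10.3 CPM in WT (0.25, SE 0.17), while Rab40b overlapped, with 3.18 and 3.95 CPM in Fxr1 cKO, against 4.10 and 3.61 CPM in WT (-0.11, SE 0.29).

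Counted over all members, both Fxr1 cKO libraries lay above both WT libraries in 4 (Rab4a, Rab8a, Rab15 and Rab40c) and below them in 10 (Rab5a, Rab5c, Rab8b, Rab11a, Rab24, Rab26, Rab27a, Rab28, Rab36 and Rab37). These are 8.16% and 20.4% of the members, where 14.9% and 15.2% of all tested genes stood apart in those directions. Either way, 28.6% of members stood apart, against 30.1% of all tested genes. The spread between libraries was also much as elsewhere. From the lowest to the highest of the 4 libraries, members at 100 CPM or more spanned a median of 0.14 on the log2 scale (12 genes), and so did all tested genes at that level (2194 genes).

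The proteins that run the Rab cycle were read from lists of 127 genes, all in the table, of which 116 could be tested and 0 passed. An unadjusted p under 0.05 was reached by 0 of them with edgeR, 0 with DESeq2 and 0 with voom. Fitted values were above 0 in 69 (59.5%) and below 0 in 47, where 49.6% of all tested genes were above 0. The median log2 fold change was 0.0187, and it was also 0.0187 in a fit without ribosomal and small RNA genes such as Rn45s. It turned to -0.013, with 51 above and 65 below 0, without Fxr1 cKO replicate 1, the library with the highest Rn45s. Without Fxr1 cKO replicate 3, WT replicate 2 or WT replicate 3 it was 0.037, 0.038 and 0.010. The cause of these shifts was not tested.

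Among genes of lipid attachment and recovery from membranes (8 tested, 0 passed), Gdi2, for a widely expressed GDI, measured 329 and 331 CPM in Fxr1 cKO, against 321 and 350 CPM in WT. The genotypes overlapped, with a log2 fold change of -0.02 (SE 0.07). The transferase subunit genes Rabggta and Rabggtb had values of -0.10 (SE 0.11) and 0.06 (SE 0.11), and the escort protein gene Chml -0.12 (SE 0.11).

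Of the exchange factors, 32 were tested, 20 above (62.5%) and 12 below 0, where 49.6% of all tested genes were above 0. Madd, the Rab3 exchange factor, had the highest CPM, with 618 and 545 in Fxr1 cKO, against 596 and 598 in WT (-0.04, SE 0.07), and Dennd5b, which bears the DENN domain of such factors, came next (0.05, SE 0.07). Mon1b, part of the Rab7 exchange factor, had 47.0 and 47.7 CPM in Fxr1 cKO, against 44.2 and 38.6 CPM in WT (0.20, SE 0.10). Gapvd1, which acts on Rab5, stood at 0.11 (SE 0.08). In both Mon1b and Gapvd1 each Fxr1 cKO library was above each WT library. Neither passed, and their adjusted p was 0.998 by edgeR.

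Of the GAPs, 35 were tested, 18 above (51.4%) and 17 below 0, where 49.6% of all tested genes were above 0. Tbc1d9 and Tbc1d9b were the most abundant, with values of -0.08 (SE 0.07) and 0.02 (SE 0.07). Sgsm1 (0.14, SE 0.08) and Sgsm2 (-0.16, SE 0.10), a pair of related GAP genes, took opposite sides, and Usp6nl, a GAP for Rab5, stood at -0.15 (SE 0.09). Of the effectors, 38 were tested, 26 above (68.4%) and 12 below 0, beside the same 49.6% of all tested genes. The median log2 fold change of the effectors was 0.027. Myo5a, the myosin motor that Rab proteins recruit to vesicles, measured 1924 and 1773 CPM in Fxr1 cKO, against 1637 and 1822 CPM in WT (0.10, SE 0.07). Dmxl2, whose product associates with regulators of Rab3, stood at -0.06 (SE 0.07). Rph3a, the Rab3 effector rabphilin, measured 197 and 215 CPM in Fxr1 cKO, against 257 and 206 CPM in WT. A single library, WT replicate 2, stood above the others, and the log2 fold change of -0.17 (SE 0.09) became -0.00063 without it. Bicd2, which links Rab6 vesicles to dynein, had 159 and 143 CPM in Fxr1 cKO, against 139 and 133 CPM in WT (0.15, SE 0.08). Mical1, a Rab effector acting on actin, was low, with 3.97 and 3.18 CPM in Fxr1 cKO, against 2.77 and 2.05 CPM in WT (0.57, SE 0.32).

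A further 3 genes control phosphorylation of Rab proteins. Lrrk2, whose kinase acts on Rab8a, Rab10 and Rab12, had 74.5 and 75.4 CPM in Fxr1 cKO, against 71.0 and 66.0 CPM in WT (0.13, SE 0.09). Ppm1h, the phosphatase that reverses this, had 168 and 157 CPM in Fxr1 cKO, against 154 and 153 CPM in WT (0.08, SE 0.08). Lrrk1, the related kinase for Rab7, was near the lower limit, with 1.39 and 1.06 CPM in Fxr1 cKO, against 1.74 and 1.95 CPM in WT (-0.59, SE 0.44). In 3 of 3 the groups stood apart and 0 passed. Over all cycle lists 36 of 116 genes stood apart, which is 31.0%, against 30.1% of all tested genes.

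**Figure D4:**
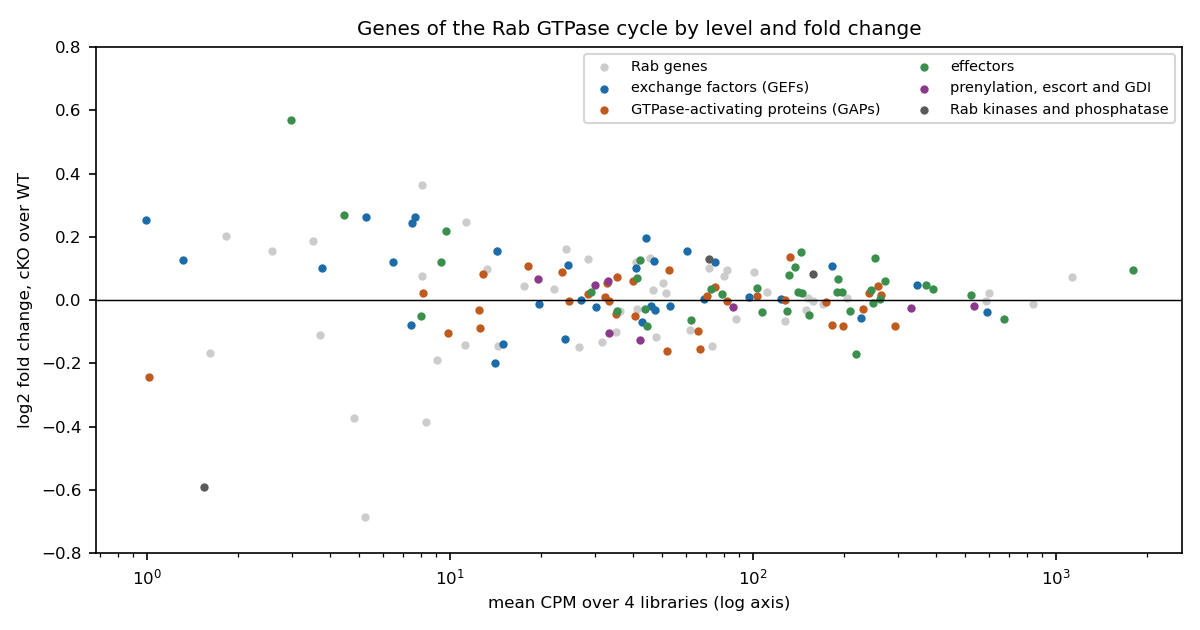
Fitted log2 fold change (Fxr1 cKO over WT) against mean CPM (log axis) for the 116 tested genes of the Rab cycle, coloured by role, with the 49 Rab genes in grey. Values above 0.3 or below -0.3 occur at low CPM, as for Mical1 (0.57), Lrrk1 (-0.59) and Rab37 (-0.69).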

How the data were processed

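Ribosome-bound RNA was purified through tagged Rpl22, and libraries were made with Takara's SMARTer stranded kit for total RNA, per the labels' protocols. STAR and mm10 are the aligner and build in the submitters' processing notes. Not given in the sources used here are the STAR version, the counting tool, its annotation and its treatment of strand. The deposited values are whole-number counts for each gene symbol, which the authors left unnormalized. A column was used only if its name matched the title of 1 sample, which left 4 columns. The other 2 columns share 1 title and were not used. No pair of libraries was alike within sampling noise (chi-square per degree of freedom 3.02 to 6.35).

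R 4.3.3 and edgeR 4.0.16 were used for the test (TMM, filterByExpr, robust quasi-likelihood fit, Benjamini-Hochberg over 12449 genes, threshold 0.05). Exon lengths and coordinates are from GENCODE M21. The test was first tested on simulated data with known changes. Alternatives used DESeq2 1.42.0 and limma 3.58.1 voom, other scalings and filters, and each library left out.

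Members and lists were chosen with earlier results of these data known. Genes named by rule are, per role list, the 3 highest per length and the 2 with the smallest p. The rule adds the 5 members with the smallest p in each direction, those next to the CPM minimum, per cycle list the 3 smallest p and the 2 highest CPM, and Fxr1, Pvalb and Gad1. Rab1, Rab2b, Rab3d, Rab11b, Rab14, Rab21, Rab22a, Rab27a and Rab27b were named after their values were seen. Rab1b, Rab9, Rab18, Rab23, Rab31, Rab33a, Rab33b and Rab34 are named below only because their direction turned with a library left out. Some genes that the rule names are not reported here.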

Additional observations from a re-analysis of the deposited data

How the results depend on the processing

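The count of 0 Rab genes past the threshold held under all 12 alternative fits and at an adjusted p of 0.1. The median log2 fold change stayed between 0.0073 and 0.0138 in the fits on 4 libraries and ran from -0.0093 to 0.0217 with a library left out. The ratio of summed Rab CPM was 1.01 with library totals, as with TMM. At least 5 CPM in 2 columns kept 44 members, and no minimum gave 56. With a library left out, fits assume that the lone library varies like the other genotype. The direction then turned for 28 of the 49 Rab genes, and under the other alternatives for 0. Their log2 fold changes with a library left out were Rab1 (-0.074 to 0.018), Rab10 (-0.048 to 0.11), Rab12 (-0.0071 to 0.022), Rab13 (-0.50 to 0.26), Rab14 (-0.12 to 0.16), Rab18 (-0.042 to 0.21), Rab1b (-0.11 to 0.17), Rab21 (-0.13 to 0.067), Rab22a (-0.28 to 0.45), Rab23 (-0.021 to 0.092), Rab2a (-0.19 to 0.15), Rab2b (-0.15 to 0.082), Rab31 (-0.43 to 0.013), Rab33a (-0.085 to 0.27), Rab33b (-0.13 to 0.30), Rab34 (-0.15 to 0.46), Rab3a (-0.042 to 0.018), Rab3b (-0.063 to 0.056), Rab3c (-0.070 to 0.11), Rab3d (-0.62 to 0.65), Rab40b (-0.28 to 0.036), Rab4b (-0.021 to 0.082), Rab5b (-0.087 to 0.18), Rab6a (-0.060 to 0.054), Rab6b (-0.0048 to 0.15), Rab7 (-0.20 to 0.10), Rab7l1 (-0.064 to 0.55) and Rab9 (-0.32 to 0.0079). Of the cycle genes named, it turned for Gdi2 (-0.082 to 0.040), Madd (-0.13 to 0.049), Rabggtb (-0.022 to 0.15) and Tbc1d9b (-0.042 to 0.075). The cause was not tested. Rab37 stayed below 0 in 11 of 11 fits that could test it (-0.79 to -0.57), with an adjusted p of 0.998 by edgeR in the main fit. Both of its Fxr1 cKO libraries lay below both WT libraries, so leaving a library out could hardly turn its direction. No paired analysis was possible because replicate numbers come from accession order. Depth limits the 11 members under 10 CPM, of which 1 had an interval within a 1.5-fold change.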
